A study of Mus musculus with 4 samples.

Results

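The mitochondrial carriers of the SLC25 family were followed at the transcript level in MyD88 -/- mouse macrophages grown from bone marrow. MyD88 is the signalling adaptor of most Toll-like receptors. The members were all genes whose single symbol in the platform annotation starts with Slc25a, 1 symbol being set aside, which gave 43 genes with 92 probe sets out of 45037 on the array. The 2 zymosan arrays came from MyD88 -/- macrophages given zymosan, a particle of yeast cell wall, at 100 ug/ml for 120 min. The 2 unstimulated arrays came from MyD88 -/- macrophages at 0 min with no stimulus. All cells had been grown from marrow for 6 days with recombinant human M-CSF, which drives marrow precursors toward macrophages. Every group therefore lacked MyD88, and no wild-type array was analysed here. Strain, sex and age of the mice are not given in the labels. Nor is it given whether replicate arrays stem from different animals or cultures, so the p-values measure a spread that may be technical in part.

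Carriers of this family are built from repeats that span the mitochondrial inner membrane, and each moves a small set of metabolites between cytosol and matrix. They exchange ADP for ATP, take up phosphate, pass citrate, malate and amino acids between pathways, and bring in cofactors that the matrix cannot make. In macrophages, citrate leaving mitochondria feeds lipid synthesis, and inflammatory activation is known to change how the matrix handles succinate, itaconate and reducing equivalents.

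The share of carriers that changed was close to that of all transcripts, and single members moved in opposite directions. Values are log2 expression made by the authors with RMA, and differences are zymosan minus unstimulated. A probe set was tested when at least 2 arrays had it at or above their 40th percentile, which held for 77 of the 92 member probe sets and for 38 of the 43 genes. Of these 77 probe sets, limma called 8 higher and 6 lower on zymosan arrays at an adjusted p under 0.05. That is 18.2% in all, where the share over all 27571 tested probe sets was 15.9%. Probe sets called higher made up 8.48% of the whole table and those called lower 7.45%. With the probe set of highest mean standing for each gene, 3 carrier genes rose and 2 fell, 5 of 38 or 13.2%, near the 14% of all 13222 genes, of which 8.36% rose and 5.64% fell. The median difference over the 38 genes was -0.02, and 0.00 over all genes. The sizes were close too, with a median absolute difference of 0.17 for the carriers and 0.18 for all genes.

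**Figure D1:**
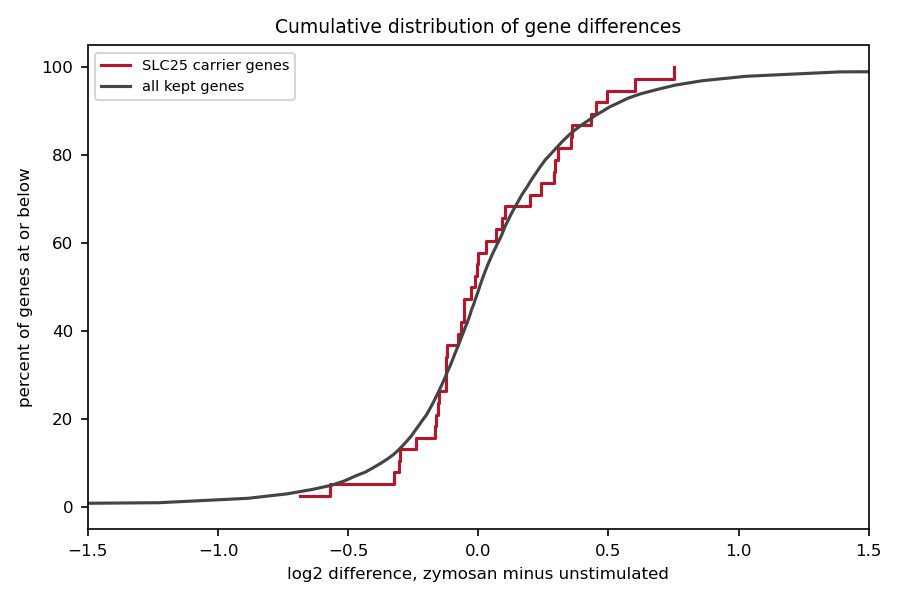
Cumulative share of genes (percent, vertical axis) at or below each log2 difference, zymosan minus unstimulated (horizontal axis, cut at 1.5 on both sides), for the 38 tested SLC25 carrier genes (red steps) and all 13222 tested genes (dark line). The curves run close together around medians of -0.02 and 0.00.

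Called members were spread over 9 genes when every probe set was counted, 4 with a probe set that rose and 5 with one that fell. That is 23.7% of the 38 genes, where 22% of all genes had at least 1 probe set called. The arrays of the groups did not overlap at 46 of the 77 probe sets, or 59.7%, against 60.6% over the whole table. At 1 of the 77 the group means lay at least 2-fold apart, which 5.14% of all tested probe sets did. The median gap between the arrays of a pair was 0.12 for zymosan and 0.13 for unstimulated arrays over the member probe sets, against a median absolute difference of 0.20 between the group means.

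Both zymosan arrays were hybridized on 1 day, 153 days after the first unstimulated array, with a different operator and project number. A gap of 16 days lay between the unstimulated arrays, and their titles name LPS and PIC sets. The effects of day, operator, array set and zymosan cannot be told apart in these values. The number of calls changed with the arrays used. Without zymosan replicate 1, limma called 0 member probe sets higher and 1 lower, and 9 and 6 reached p under 0.05 unadjusted. Over the whole table the share called then was 2.78%. Without zymosan replicate 2 it called 0 in either direction, and 11 and 8 reached p under 0.05 unadjusted, with 1.41% called over the whole table. With a random block for day it called 1 higher and 1 lower, and 11 and 6 reached p under 0.05 unadjusted, with 5.03% called over the whole table. Without unstimulated replicate 1 the counts were 9 higher and 3 lower, and without unstimulated replicate 2 they were 2 higher and 4 lower, with 17.4% and 15.5% called over the whole table. The share of all probe sets at an unadjusted p under 0.05 is not given. Counts at that threshold, here and below, are therefore not read as particular to the carriers. A fit without 1 array leaves its group with a single array, which is assumed to vary like the other group. In these fits the differences of the 14 called probe sets ran from 0.725 to 1.28 times their size with all arrays, so some were smaller and some larger. Why calls were lost was not tested.

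Some cell type markers differed between the zymosan and unstimulated arrays. Of 10 tested neutrophil and granulocyte precursor markers, 9 were higher, and their summed linear level was 5020 to 5234 on zymosan arrays against 1090 to 1141 on unstimulated arrays. Mpo, myeloperoxidase, was at 7.76 and 7.77 on zymosan arrays against 4.53 on both unstimulated arrays, little above the filter's level of 4.36 to 4.39. Of 8 macrophage markers 4 were lower, Adgre1, Fcgr1, Itgam and Cd14, with a summed level of 41563 to 41577 on zymosan against 47037 to 50092 on unstimulated arrays. Cd68, a lysosomal protein of macrophages, was at 13.35 and 13.31 on zymosan arrays against 13.07 and 13.19 on unstimulated arrays. Of the tested erythroid (2), T and NK cell (2), fibroblast (4) and dendritic cell (3) markers limma called 0, and 1 fibroblast marker had an unadjusted p under 0.05. Of 3 B cell markers Cd79b was lower. Hba-a1, Alas2, Ms4a1, Cd3d, Cd3g, Ncr1, Col1a1, Col3a1 and Xcr1 did not reach the filter's level. The part of these shifts in the carrier values was not tested, nor was it tested whether the cultures held other cells. In RNA from whole cultures, fewer cells of a type and less RNA per cell cannot be told apart.

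The largest carrier difference was that of Slc25a36, and its closest relative in function moved the other way. Slc25a36 and Slc25a33 encode the pyrimidine nucleotide carriers, which supply the matrix with nucleotides for mitochondrial DNA and RNA. At 1419656_at, Slc25a36 was at 6.78 and 6.43 on the zymosan arrays, against 7.97 on both unstimulated arrays. It was 2.58-fold lower, a difference of -1.37 (SE 0.14, adjusted p = 0.00577). A second probe set, 1419657_a_at, was at 8.45 and 8.65 on zymosan arrays and at 9.21 and 9.26 on unstimulated arrays, a decrease of 1.61-fold (-0.68, SE 0.12, adjusted p = 0.0191). At both, every zymosan array lay below every unstimulated one. The third, 1438520_at, lay near the filter's level, at 4.22 and 4.63 on zymosan and 4.12 and 4.47 on unstimulated arrays, with a difference of 0.12 that missed the threshold (adjusted p = 0.712). The call of 1419656_at was kept without zymosan replicate 1 (adjusted p = 0.0299) and missed the threshold without zymosan replicate 2 (adjusted p = 0.0520). That of 1419657_a_at was lost in these cases (adjusted p = 0.135 and 0.0947) and with a random block for day (adjusted p = 0.0837).

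Slc25a33 rose 1.68-fold at its single probe set. Its values were 7.03 and 7.06 on zymosan arrays against 6.31 and 6.28 on unstimulated arrays, a difference of 0.75 (SE 0.10, adjusted p = 0.0105). Both zymosan arrays lay above both unstimulated ones. The log2 ratio of Slc25a33 to Slc25a36 at 1419656_at within each array was 0.26 and 0.63 on zymosan arrays, against -1.66 and -1.69 on unstimulated arrays. Only the change of such a ratio is read here, since probe sets differ in brightness. It was 2.12 with a pooled SD of 0.19, and with 2 arrays against 2 an exact permutation test could give no p below 0.333. The change against 1419657_a_at was 1.44 with a pooled SD of 0.10. Without zymosan replicate 1 or zymosan replicate 2, the Slc25a33 difference was 0.77 and 0.74 and the call was lost (adjusted p = 0.0849 and 0.105), and it held with a random block for day (adjusted p = 0.0443).

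The start regions of these opposite movers, and that of Slc25a5, which rose at the most probe sets, are printed for comparison. They are 300 bases each, 250 before to 50 after the annotated start, from RefSeq on GRCm38.p6, which gave a region for 34 of the 43 genes, the first listed start being used for each gene. Slc25a36 lies at chr9:97110992-97111291, minus strand, Slc25a33 at chr4:149774218-149774517, minus strand, and Slc25a5 at chrX:36795347-36795646, plus strand. Capitals mark, on either strand, the GC box GGGCGG, the CCAAT box, the E-box CACGTG and the ETS core CCGGAAG, none of which overlapped another in these 3 regions.
Slc25a36: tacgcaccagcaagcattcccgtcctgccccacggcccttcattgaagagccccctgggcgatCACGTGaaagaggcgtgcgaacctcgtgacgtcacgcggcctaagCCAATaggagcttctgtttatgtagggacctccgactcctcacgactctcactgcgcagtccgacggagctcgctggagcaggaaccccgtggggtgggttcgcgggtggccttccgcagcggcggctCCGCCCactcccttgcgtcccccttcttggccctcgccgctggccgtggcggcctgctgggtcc
Slc25a33: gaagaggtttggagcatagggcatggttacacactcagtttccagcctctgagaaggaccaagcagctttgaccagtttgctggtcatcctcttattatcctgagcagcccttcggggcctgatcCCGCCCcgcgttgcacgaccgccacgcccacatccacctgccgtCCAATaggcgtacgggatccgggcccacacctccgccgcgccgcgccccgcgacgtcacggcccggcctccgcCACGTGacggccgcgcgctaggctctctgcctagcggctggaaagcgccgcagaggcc
Slc25a5: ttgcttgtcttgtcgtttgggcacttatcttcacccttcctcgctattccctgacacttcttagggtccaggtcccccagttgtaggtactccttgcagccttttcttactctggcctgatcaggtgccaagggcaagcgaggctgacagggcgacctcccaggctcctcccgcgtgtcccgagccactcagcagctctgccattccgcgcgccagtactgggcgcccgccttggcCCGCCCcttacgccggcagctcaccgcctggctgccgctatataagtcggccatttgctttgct
Each of the pyrimidine carrier genes held 1 GC box, 1 CCAAT box and 1 E-box, and Slc25a5 held 1 GC box alone of the motifs searched. None of the 3 held the ETS core. The E-box was found in 7.15% of all 32851 regions of that length, several per gene included, and in 9.88% of the 10675 that belong to a tested gene. Over the 34 carrier regions it stood in 6, or 17.6%. The GC box was in 29 of the 34, or 85.3%, against 60.9% of the regions of tested genes and 35.7% of all regions. The CCAAT box was in 16 carrier regions (47.1%, against 37.9% of tested genes and 37.4% of all) and the ETS core in 7 (20.6%, against 16.9% and 8.86%).

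Of the other cofactor carriers, Slc25a51 rose. The human protein brings NAD into the matrix. At 1433816_at it was at 10.10 and 10.13 on zymosan arrays against 9.71 and 9.65 on unstimulated arrays, 1.35-fold higher (0.43, SE 0.10, adjusted p = 0.0446). Its other probe sets had differences of 0.34 and 0.21 and did not pass the test (adjusted p = 0.143 and 0.224), though in all 3 the zymosan arrays lay above the unstimulated ones. In a fit of 1 mean per gene over its probe sets Slc25a51 did not pass (0.33, SE 0.09, adjusted p = 0.0603). The call was lost without either zymosan array (adjusted p = 0.216 and 0.253), without either unstimulated array (adjusted p = 0.0594 and 0.0864) and with the day block (adjusted p = 0.153). Slc25a32, a carrier of folate and flavin, differed by 0.45 at its brighter probe set (95% interval 0.09 to 0.81, adjusted p = 0.0919), and it passed without unstimulated replicate 1 (0.62, adjusted p = 0.0281). Without unstimulated replicate 2 the difference was 0.28 (adjusted p = 0.184), and without either zymosan array it did not pass (adjusted p = 0.292 and 0.344), nor with the day block (adjusted p = 0.223). Slc25a42, which moves coenzyme A, differed by -0.32 (95% interval -0.64 to -0.01, adjusted p = 0.143). Slc25a26, the S-adenosylmethionine carrier, Slc25a16 and the peroxisomal Slc25a17 had differences from -0.05 to 0.10. Among the 8 genes of this role, 2 rose and 1 fell by the probe set of highest mean, where 8.36% of all genes rose and 5.64% fell.

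**Figure D2:**
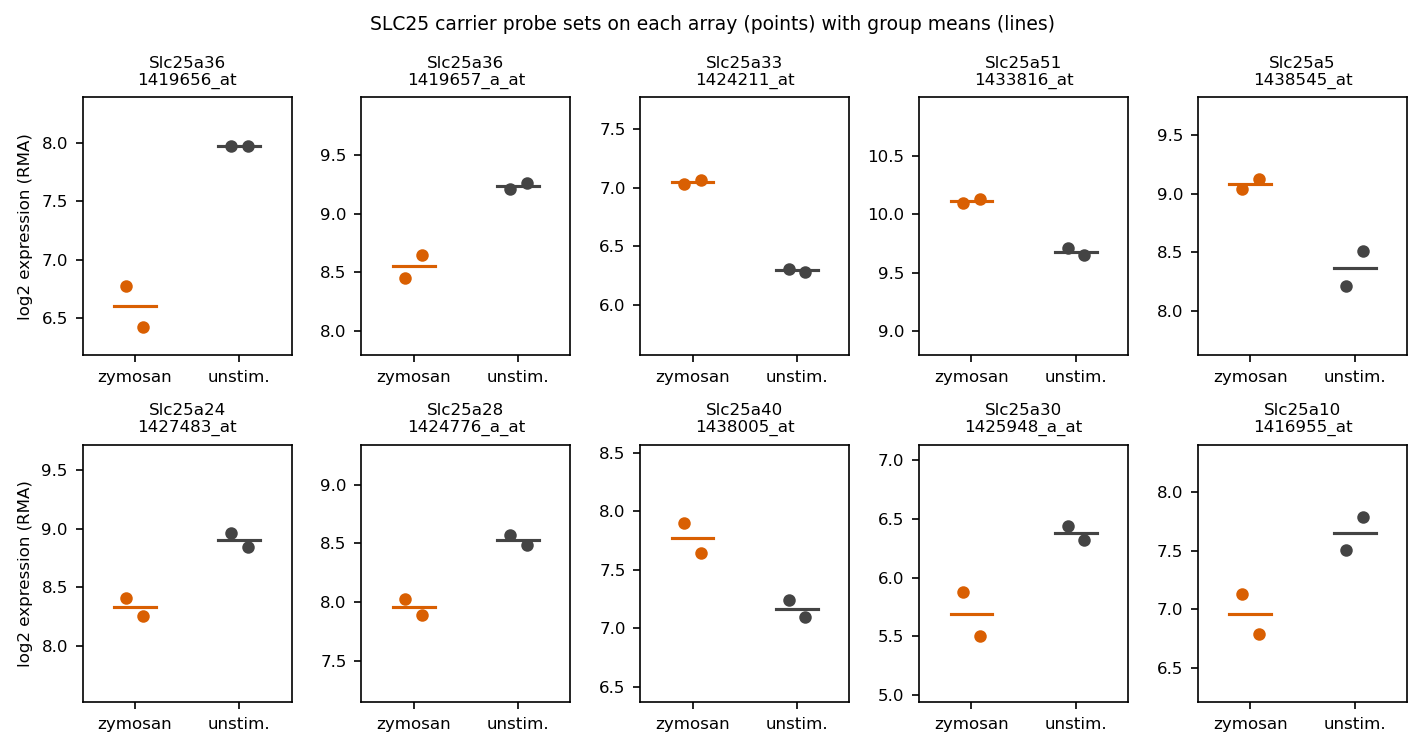
Log2 expression (vertical axes, each spanning 2.2 units) of 10 probe sets from the 9 SLC25 genes with a call, on the 2 zymosan arrays (orange, left) and the 2 unstimulated arrays (dark, right). Lines are group means. The groups do not overlap in any panel, which the choice of called probe sets favours and which held for 60.6% of all tested probe sets. The widest separation is that of Slc25a36 at 1419656_at.

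Of the tested adenine nucleotide translocases Slc25a5 had calls and Slc25a4 had none. Slc25a5 encodes the translocase ANT2, which exchanges ADP for ATP in growing cells, and Slc25a4 encodes ANT1, the form of heart and muscle. All 8 probe sets of Slc25a5 had positive differences, from 0.37 to 0.72, and at each the zymosan arrays lay above the unstimulated ones. Of the 8, 5 rose and 3 did not pass the test (adjusted p = 0.0592, 0.0622 and 0.0905), among them the probe set of highest mean, 1436874_x_at, at 12.56 and 12.36 on zymosan arrays against 12.07 and 11.86 on unstimulated arrays. At 1438545_at the values were 9.04 and 9.12 on zymosan arrays against 8.21 and 8.51 on unstimulated arrays, 1.65-fold higher (SE of the log2 difference 0.14, adjusted p = 0.0244). The mean of the 8 probe sets was 10.76 and 10.74 on zymosan arrays against 10.26 and 10.21 on unstimulated arrays, and in a fit of 1 mean per gene it rose by 0.51 (SE 0.09, adjusted p = 0.0169). In the same fit Slc25a4 differed by -0.12 (SE 0.09, adjusted p = 0.441).

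The 3 tested probe sets of Slc25a4 had differences of -0.15, -0.13 and -0.07, with 95% intervals that reached at most 0.21 (adjusted p = 0.528 to 0.736). The log2 ratio of Slc25a5 at 1438545_at to Slc25a4 at 1434897_a_at was higher on both zymosan arrays than on either unstimulated array. The change was 0.87 with a pooled SD of 0.17 (given as a description, with no test). It pairs the Slc25a5 probe set of largest difference with the Slc25a4 probe set of most negative difference, so every other pair changed less. The means per gene differed by 0.51 for Slc25a5 and by -0.12 for Slc25a4. The translocase genes are similar in sequence, and 6 of the 8 Slc25a5 probe sets have IDs ending in _x_at, which marks probes that can bind other transcripts, so their reading is uncertain. The 5 Slc25a5 calls were lost without zymosan replicate 1 (adjusted p = 0.125 to 0.253), without zymosan replicate 2 (adjusted p = 0.169 to 0.256) and with the day block (adjusted p = 0.0790 to 0.154). Without unstimulated replicate 2 only 1438545_at passed (adjusted p = 0.0141, the others 0.0502 to 0.0970), and without unstimulated replicate 1 only 1438922_x_at was lost (adjusted p = 0.0788).

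Slc25a3, the phosphate carrier that serves ATP synthase, was at 12.15 and 12.13 on zymosan arrays and 12.12 and 12.15 on unstimulated arrays. Its difference of 0.00 had a 95% interval of -0.25 to 0.25, and a dim second probe set differed by -0.17. The carriers of ATP-magnesium against phosphate, which calcium activates, were mixed. Slc25a24 was at 8.41 and 8.25 on zymosan arrays against 8.96 and 8.84 on unstimulated arrays at 1427483_at, 1.49-fold lower (-0.57, SE 0.12, adjusted p = 0.0300). Its other probe set, the one of higher mean, differed by -0.16 (95% interval -0.42 to 0.11, adjusted p = 0.371). The Slc25a24 call was lost without either zymosan array (adjusted p = 0.120 and 0.209), without unstimulated replicate 1 (adjusted p = 0.0608) and with the day block (adjusted p = 0.115). Slc25a25 differed by 0.36 (95% interval 0.02 to 0.70, adjusted p = 0.141) at one probe set and by -0.05 at another, and Slc25a23 by -0.03.

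Slc25a28 encodes mitoferrin-2, which carries iron into mitochondria outside the red cell lineage. It was at 8.02 and 7.89 on zymosan arrays against 8.57 and 8.48 on unstimulated arrays, so that all zymosan values were below all unstimulated ones. It fell 1.48-fold (-0.57, SE 0.11, adjusted p = 0.0267). The call was lost without either zymosan array (adjusted p = 0.120 and 0.196), without unstimulated replicate 1 (adjusted p = 0.0520) and with the day block (adjusted p = 0.104). Slc25a38, a glycine carrier needed for heme synthesis, differed by -0.13 (adjusted p = 0.478).

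Slc25a40 and Slc25a39 are related carriers tied to mitochondrial glutathione. Slc25a40 rose 1.52-fold, with values of 7.89 and 7.64 on zymosan arrays against 7.24 and 7.09 on unstimulated arrays (0.60, SE 0.13, adjusted p = 0.0373). All 5 probe sets of Slc25a39 had small negative differences, from -0.13 to -0.01, and none passed the test (adjusted p = 0.515 to 0.981). The difference of Slc25a40 against that of Slc25a39 was not tested. Without zymosan replicate 1, zymosan replicate 2 or unstimulated replicate 2, the Slc25a40 call was lost (adjusted p = 0.214, 0.117 and 0.0824), as it was with the day block (adjusted p = 0.145). Slc25a20, which carries acylcarnitines in for fatty acid oxidation, differed by -0.13 and -0.14 at its probe sets (adjusted p = 0.566 and 0.483).

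Carriers of di- and tricarboxylates showed 1 call among 6 tested probe sets, near the 15.9% of all probe sets. By the probe set of highest mean, 0 of the 5 genes were called, where 14% of all genes were. The 5 include Slc25a34 and Slc25a35, whose substrates are not settled. Slc25a10, the dicarboxylate carrier that exchanges malate or succinate for phosphate, was at 7.13 and 6.79 on zymosan arrays against 7.51 and 7.79 on unstimulated arrays at 1416955_at, 1.61-fold lower (-0.69, SE 0.17, adjusted p = 0.0457). At its probe set of higher mean it was at 8.70 and 8.74 on zymosan arrays against 8.99 and 9.07 on unstimulated arrays, and the difference of -0.31 (95% interval -0.56 to -0.05) did not pass the test (adjusted p = 0.108). In both, no zymosan array reached an unstimulated one. The call was lost without either zymosan array (adjusted p = 0.0976 and 0.245), without unstimulated replicate 2 (adjusted p = 0.102) and with the day block (adjusted p = 0.164). Slc25a1, the citrate carrier, differed by 0.09 (95% interval -0.18 to 0.37, adjusted p = 0.629), and Slc25a11, the oxoglutarate-malate carrier, by -0.17 (95% interval -0.47 to 0.13, adjusted p = 0.402).

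In the amino acid group limma called 0 of 10 genes and 0 of 19 probe sets, with gene differences from -0.30 to 0.36, where 14% of all genes and 15.9% of all probe sets were called. At an unadjusted p under 0.05 stood 0 of the genes, 1 probe set higher and 1 lower. Slc25a12 and Slc25a13, the aspartate-glutamate carriers of the malate-aspartate shuttle, had differences of 0.20 (95% interval -0.19 to 0.59) and 0.29 (95% interval -0.16 to 0.74). Slc25a44, a carrier of branched-chain amino acids, was at 7.39 and 7.41 on zymosan arrays against 7.13 and 6.86 on unstimulated arrays at 1433448_at. Its 3 probe sets had differences of 0.41, 0.36 and 0.21 (adjusted p = 0.0915, 0.162 and 0.371). Slc25a22, a glutamate carrier, differed by -0.05, and Slc25a15, the ornithine carrier of the urea cycle, by 0.24 at its brighter probe set and -0.15 at a dim one. Slc25a29, a carrier of basic amino acids, had differences from -0.28 to 0.01 at 4 probe sets, and Slc25a38 is described with iron above. Slc25a45, Slc25a47 and Slc25a48, whose substrates are less settled, had differences of -0.30, of -0.24, and of -0.01 and -0.20.

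Slc25a30, a relative of the uncoupling proteins, had a call at 1 probe set and differences of both signs. At 1425948_a_at it was at 5.88 and 5.50 on zymosan arrays against 6.44 and 6.32 on unstimulated arrays, 1.61-fold lower (-0.69, SE 0.16, adjusted p = 0.0388). At 1420836_at, the probe set of highest mean, it was at 8.86 and 8.74 on zymosan arrays against 8.44 and 8.57 on unstimulated arrays, a difference of 0.30 (95% interval 0.01 to 0.58) that did not pass the test (adjusted p = 0.145). Those at 1450018_s_at were 8.28 and 7.99 on zymosan arrays against 7.96 and 7.68 on unstimulated arrays (0.32, adjusted p = 0.228). At 1420835_at they were 8.01 and 7.76 on zymosan arrays against 8.07 and 8.09 on unstimulated arrays (-0.20, adjusted p = 0.342), so the gene has no single direction here. The call was lost without each of the 4 arrays in turn (adjusted p = 0.0568 to 0.205) and with the day block (adjusted p = 0.163). Over the family, 21 genes had several tested probe sets and 6 of them had differences of both signs. Slc25a14, another relative of the uncoupling proteins, differed by 0.31 (95% interval -0.02 to 0.63, adjusted p = 0.180), and Slc25a27 by -0.08.

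**Figure D3:**
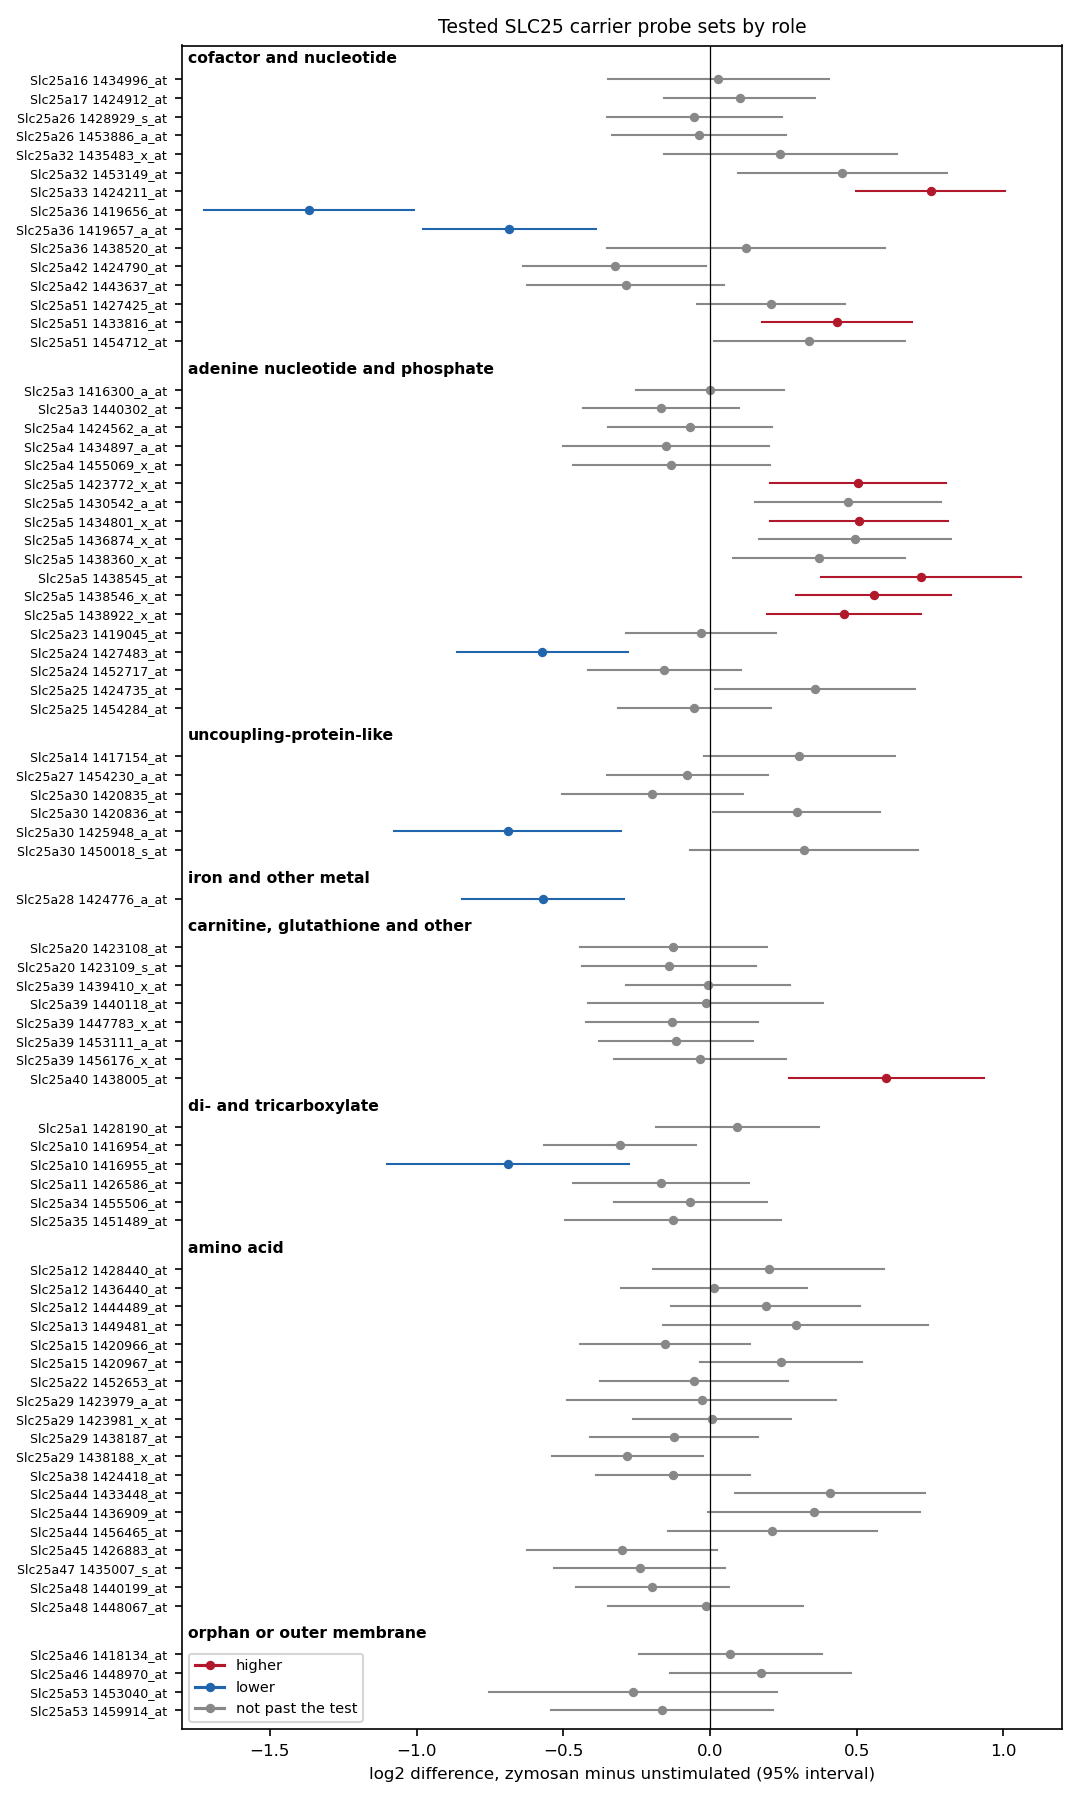
Log2 difference, zymosan minus unstimulated, with its 95% interval (horizontal axis) for each of the 77 tested SLC25 probe sets, grouped by role of the gene. Red marks the 8 probe sets that rose, blue the 6 that fell and grey the others. Slc25a5 lies right of 0 at all 8 probe sets, and no probe set of the amino acid group is coloured.

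Of the rest, Slc25a46, an outer membrane protein of mitochondrial shape, was at 8.97 and 8.81 on zymosan arrays against 8.63 and 8.80 on unstimulated arrays at 1448970_at, a difference of 0.17 (adjusted p = 0.400), and differed by 0.07 at its other probe set. Slc25a53 had differences of -0.16 and -0.26. Slc25a34 and Slc25a35, counted above with the di- and tricarboxylate carriers, differed by -0.07 and -0.13. The genes with no probe set at the filter's level were Slc25a2, Slc25a18, Slc25a31, Slc25a41 and Slc25a54, whose values ran from 2.76 to 4.25 on all 4 arrays. Slc25a31 encodes the translocase of male germ cells. Only 1 tested probe set reached the level on the arrays of 1 group alone, a probe set of Slc25a48, and it was not called.

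Carriers reach the inner membrane through the TOM complex, the small TIM chaperones of the intermembrane space and the TIM22 complex. Of 12 tested genes of this route, 3 rose, where 8.36% of all genes did, and all 3 encode small chaperones. limma called 0 of the 12 lower, with 1 at an unadjusted p under 0.05. Timm10 was at 9.34 on both zymosan arrays against 8.63 and 8.45 on unstimulated arrays (0.80, SE 0.12, adjusted p = 0.0122). Timm9, its partner in the chaperone ring, was at 5.57 and 5.71 on zymosan arrays against 5.08 and 4.86 on unstimulated arrays (0.67, SE 0.13, adjusted p = 0.0247). Timm8a1 was at 9.52 and 9.51 on zymosan arrays against 8.82 and 8.55 on unstimulated arrays (0.83, SE 0.13, adjusted p = 0.0147). The small chaperones did not all move together. Timm10b, a further one, went the other way without a call (-0.27, adjusted p = 0.143). Its values were 10.07 and 10.03 on zymosan arrays against 10.29 and 10.35 on unstimulated arrays. Timm8b and Timm13, of the same kind, had changes of 0.41 and 0.22, also without a call (adjusted p = 0.0518 and 0.254). Timm22, the channel that inserts the carriers, differed by 0.02 (adjusted p = 0.908). Without zymosan replicate 1 or zymosan replicate 2 the 3 calls were lost (adjusted p = 0.0918 to 0.179), and with the day block Timm10 held (adjusted p = 0.0459) and Timm9 and Timm8a1 were lost (adjusted p = 0.0890 and 0.0505).

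Relatives of the carriers under other symbols gave 0 calls in limma among 4 tested genes, 1 having an unadjusted p under 0.05, and Mtch2, an outer membrane relative, had the largest difference there (0.34, adjusted p = 0.0837). Of 17 tested transporters of other families 2 rose, where 8.36% of all genes did, and limma called 0 lower, with 5 lower at an unadjusted p under 0.05. Mpc1, a subunit of the pyruvate carrier, was at 10.61 and 10.65 on zymosan arrays against 9.90 and 10.12 on unstimulated arrays (0.62, SE 0.12, adjusted p = 0.0253), and Sfxn1, a serine transporter, rose by 0.48 (adjusted p = 0.0361). Of 11 tested enzymes that act on the carriers' substrates 2 rose, against the same 8.36%. Acod1, which makes itaconate from aconitate, rose by 2.93 (SE 0.11, adjusted p = 0.000773). Acly, which splits the citrate that Slc25a1 exports, rose by 0.65 (adjusted p = 0.0272) at its probe set of highest mean. Acly has 6 probe sets, and the others are not given here. Got1, Got2, Mdh1 and Mdh2, the enzymes of the malate-aspartate shuttle, had differences from 0.20 to 0.36 and did not pass the test. Without either zymosan array Acod1 held (adjusted p = 0.0188 and 0.0219) and Mpc1, Sfxn1 and Acly were lost (adjusted p = 0.110 to 0.211). Sfxn1 and Acly were also lost without unstimulated replicate 1 (adjusted p = 0.0703 and 0.0561), and all 3 with the day block (adjusted p = 0.0861 to 0.127).

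**Figure D4:**
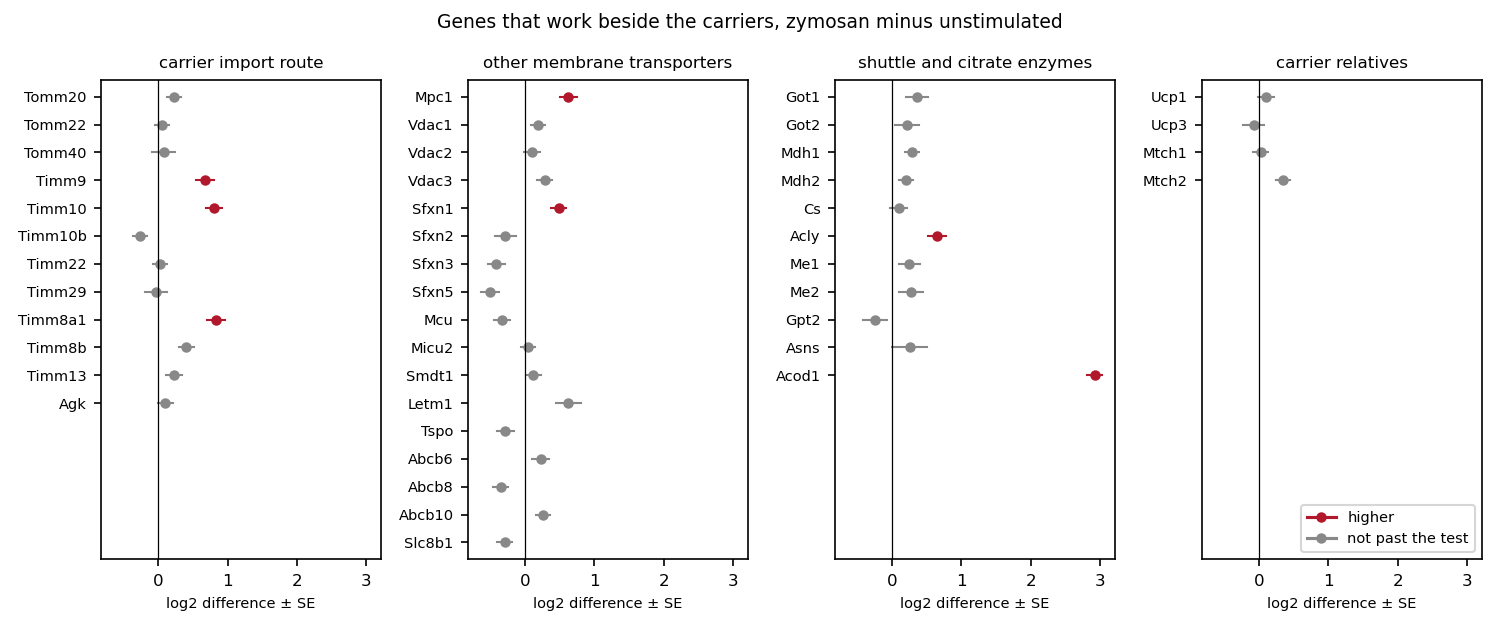
Log2 difference, zymosan minus unstimulated, with its standard error (horizontal axes) for the 44 tested genes of 4 lists outside the SLC25 symbols. Red marks the 7 that rose and grey those that did not pass the test. Among the import genes the 3 red points are the chaperone genes Timm9, Timm10 and Timm8a1, while Timm10b, also a small chaperone gene, lies left of 0.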

How the data were processed

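Each array gave 1 value per probe set. Per the submitters' processing notes, the authors used RMA, and the deposited values are on its log2 scale. RMA by design corrects background, equalizes the distributions and summarizes the probes of a set. Its version, and which arrays were normalized as 1 set, is not given in the sources used. Array medians lay between 4.92 and 4.94, so values were used as deposited. The chip type, Mouse430_2, and the hybridization days come from the scanner settings files. Of 45037 probe sets that are no controls, 34945 had 1 symbol in the platform annotation, 932 several and 9160 none, and only the first kind was named. Coordinates are printed for the start regions alone, from RefSeq on GRCm38.p6, since the array's build is not stated.

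lmFit and eBayes of limma 3.58.1 (R 4.3.3) were fitted to all 27571 probe sets at or above the 40th percentile on at least 2 arrays, 2-sided, with Benjamini-Hochberg adjustment over all of them. All adjusted p-values come from this fit or its named alternatives, and the script was tested on simulated data. The SE is limma's moderated one. The probe set of highest mean stood for a gene. Comparison lists used current symbols found through gene IDs. Their genes are given by the probe set of highest mean alone, though some have several. Timm9, Timm8a1 and Sfxn1 have 2 each, and their other probe sets are not given here. The named members are those with a call and the one of smallest p in each role. Further members, chosen after their values were seen, are named by role. The members, lists, motifs and pairs of carriers set against each other were chosen with earlier results of these data known. 1 carrier gene is not reported here. The number of arrays limits the precision. Alternatives changed the filter, normalization, variance prior, arrays, batch term and probe sets.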

Additional observations from a re-analysis of the deposited data

How the results depend on the processing

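The labels give the groups no shared replicate numbers. No paired analysis was possible because the titles carry letters that match no array of the other group. Leaving out each array in turn gave 0 to 9 carrier probe sets higher (8 with all arrays) and 0 to 4 lower (6 with all arrays), 0 to 4 carrier genes higher (3) and 0 to 2 lower (2), a median gene difference of -0.0640 to 0.0475 (-0.0222) and 1 to 9 comparison genes higher (7). Over the whole table the share of probe sets called ran from 1.41% to 17.4% in these fits, and was 5.03% with a random block for day. With a random block for day, added once the data had been seen, 1 carrier probe set was higher and 1 lower, 1 carrier gene was higher and 0 lower, and 2 comparison genes were higher. The block's correlation of 0.54 was taken from the spreads of the same-day and different-day pairs, since limma's duplicateCorrelation gives no estimate with 4 arrays. Higher carrier probe sets numbered 4 of 92 with no filter, where 4.49% of all probe sets were higher. Without the probe sets of shared sequence they numbered 4 of 60, where 8.81% of all were higher. Lower carrier genes numbered 4 with the mean of all probe sets of a gene, where the median was -0.0633. The share called and the median over all genes in that fit are not given here, so neither value is read as particular to the carriers. The carrier median was 0.0287 with a filter at the 60th percentile and 0.0146 with a filter on the mean. It was 0.00156 with each array centred on its median, so its sign is not settled. Over all genes the median was 0.0315, 0.0302 and 0.0281 in these fits, against 0.00434 in the main fit. No called probe set changed direction under any alternative run, which was largely fixed in advance. The groups overlapped at none of the 14 called probe sets, so leaving out 1 array could not reverse a sign. The filters, variance priors, choices of probe sets and day block leave each difference as it is, so only the normalization alternatives could have reversed one. Of the values of the 14 called probe sets under alternatives, 124 stayed past the threshold and 59 did not. Of the probe sets not called, only the 33 of highest mean for their gene were followed, and 7 of their values passed it. The causes were not tested.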
